A study of Mus musculus with 6 samples.

Results

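Promoter H3K27ac peaks of mouse quadriceps are described here, meaning the listed peaks whose deposited annotation began with promoter-TSS. HOMER, the peak-calling suite used for these data, gives that annotation when the centre of a peak lies from 1000 bp before to 100 bp after a transcription start site (TSS). The rule found 5251 of 46988 peaks in the sedentary list (11.2%, exact binomial 95% confidence interval 10.9% to 11.5%) and 5114 of 40721 in the detrained list (12.6%, 12.2% to 12.9%). These intervals cover counting error only. Peaks were paired across the lists when they overlapped with at least 50% of each covered, which gave 3645 pairs annotated as promoter on both sides among 26436 pairs in all, at 3626 genes.

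The mice were wild-type males of the C57BL/6 background, caged singly from 8 weeks of age. The sedentary mice had no wheel, and the detrained mice ran voluntarily on a wheel for 4 weeks and then rested without it for 72 h. Each H3K27ac library came from the quadriceps of a single animal, with 2 libraries per group, called C2 and C3 (sedentary) and Ex1 and Ex2 (detrained), and 1 input library per group. The strain label reads C57BL/6 for the H3K27ac libraries but C57BL/7 and C57BL/8 for the inputs. Totals were 20805019 to 22400894 tags per H3K27ac library, and 10812470 and 21298438 tags in the sedentary and detrained inputs. The tissue is whole muscle, so a different mix of cell types and a different level of the mark per cell cannot be told apart.

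Acetylation of lysine 27 on histone H3 is placed by the acetyltransferases p300 and CBP and marks active promoters and active enhancers. At a promoter the mark flanks the nucleosome-depleted start site. Many mammalian promoters are CpG islands, stretches rich in CpG dinucleotides that are shared by housekeeping genes, while promoters of many tissue-restricted genes, including contractile genes of muscle, hold few CpGs.

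The annotation was checked against the start sites of RefSeq (build GRCm38.p6, the same assembly as the mm10 of the lists). Of the 5251 sedentary promoter peaks, 4235 contained at least 1 of the 32817 RefSeq start sites used here. The distance in the list matched the RefSeq start of the same gene within 2 bp for 89.7% of sedentary and 89.3% of detrained promoter peaks with an entry. By the listed distance alone, 578 sedentary and 562 detrained promoter peaks had their centre outside the HOMER window of the gene named. The median centre lay at -56 bp from the start site in the sedentary list and at -55 bp in the detrained list, where a minus sign means upstream.

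The sequences of 9 promoters are given as the RefSeq window from 250 bases before to 50 bases after the start site, written 5′ to 3′ on the strand of the gene, with capitals for every match to 1 of the 14 motifs searched, on either strand. The first 3 belong to the densest promoter pairs. Hnrnpa2b1 (an RNA-binding splicing factor; chr6:51469845-51470144, minus strand), Mat2a (methionine adenosyltransferase, which makes the methyl donor S-adenosylmethionine; chr6:72439507-72439806, minus strand) and Hspa4 (a chaperone of the Hsp110 family; chr11:53300430-53300729, minus strand) had a CpG content of 1.28, 1.05 and 0.849 of that expected from their bases.
Hnrnpa2b1: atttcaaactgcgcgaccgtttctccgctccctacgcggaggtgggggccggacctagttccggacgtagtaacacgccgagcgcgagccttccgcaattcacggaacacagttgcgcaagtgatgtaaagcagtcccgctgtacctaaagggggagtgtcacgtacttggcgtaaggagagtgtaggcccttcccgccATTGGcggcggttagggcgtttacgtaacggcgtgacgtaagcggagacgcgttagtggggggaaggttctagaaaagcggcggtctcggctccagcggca
Mat2a: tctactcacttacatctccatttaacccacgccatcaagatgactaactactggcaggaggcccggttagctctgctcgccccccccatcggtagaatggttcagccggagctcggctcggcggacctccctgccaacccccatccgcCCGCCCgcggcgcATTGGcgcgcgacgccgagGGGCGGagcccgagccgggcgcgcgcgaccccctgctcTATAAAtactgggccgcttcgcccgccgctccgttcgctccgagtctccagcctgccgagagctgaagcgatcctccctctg
Hspa4: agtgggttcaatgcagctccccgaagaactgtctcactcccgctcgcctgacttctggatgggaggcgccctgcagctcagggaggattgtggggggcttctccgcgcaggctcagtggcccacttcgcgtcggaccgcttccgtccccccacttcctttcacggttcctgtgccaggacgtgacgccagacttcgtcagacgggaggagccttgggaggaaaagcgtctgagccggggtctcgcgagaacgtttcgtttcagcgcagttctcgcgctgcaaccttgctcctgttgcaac
Mat2a held a TATA box that began at -32 bases from the start site, with a CCAAT box and 2 GC boxes upstream of it. Hspa4 held no match to any of the motifs.

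The next 3 are members that encode proteins of fast muscle fibres. Mylpf (fast regulatory myosin light chain; chr7:127211358-127211657, plus strand), Casq1 (calsequestrin, the calcium store of the sarcoplasmic reticulum; chr1:172219846-172220145, minus strand) and Mybpc2 (fast myosin-binding protein C; chr7:44524620-44524919, minus strand) had a CpG content of 0.089, 0.148 and 0.343 of that expected.
Mylpf: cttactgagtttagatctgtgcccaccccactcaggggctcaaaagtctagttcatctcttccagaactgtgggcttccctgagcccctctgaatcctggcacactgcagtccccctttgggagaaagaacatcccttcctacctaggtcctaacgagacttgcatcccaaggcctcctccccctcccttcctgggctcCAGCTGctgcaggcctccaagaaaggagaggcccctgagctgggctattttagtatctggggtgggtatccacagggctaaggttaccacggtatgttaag
Casq1: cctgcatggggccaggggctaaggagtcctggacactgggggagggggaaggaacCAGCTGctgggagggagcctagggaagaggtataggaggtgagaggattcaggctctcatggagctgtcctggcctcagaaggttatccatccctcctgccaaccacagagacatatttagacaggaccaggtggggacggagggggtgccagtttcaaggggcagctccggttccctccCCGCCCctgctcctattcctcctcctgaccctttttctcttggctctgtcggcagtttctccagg
Mybpc2: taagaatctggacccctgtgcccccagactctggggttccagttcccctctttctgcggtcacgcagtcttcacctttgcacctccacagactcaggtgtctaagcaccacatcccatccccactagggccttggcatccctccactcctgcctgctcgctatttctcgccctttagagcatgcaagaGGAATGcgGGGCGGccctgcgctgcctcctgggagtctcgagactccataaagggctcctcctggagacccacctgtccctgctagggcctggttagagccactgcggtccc
The Mylpf and Casq1 windows each held a myogenic E-box (CAGCTG, the core bound by MyoD-family factors), which began at -51 and -195. The Mybpc2 window held an MCAT site (GGAATG, bound by TEAD factors) that began at -62.

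The last 3 are shown because the lists differed there. Slc8a2 (a sodium/calcium exchanger; chr7:16129576-16129875, plus strand) and Trim68 (a tripartite-motif ubiquitin ligase; chr7:102687278-102687577, minus strand) stood apart between the groups in both units used below. The start site of Egr2 (an immediate early zinc-finger factor; chr10:67537316-67537615, plus strand) lay in a detrained peak and in no sedentary peak.
Slc8a2: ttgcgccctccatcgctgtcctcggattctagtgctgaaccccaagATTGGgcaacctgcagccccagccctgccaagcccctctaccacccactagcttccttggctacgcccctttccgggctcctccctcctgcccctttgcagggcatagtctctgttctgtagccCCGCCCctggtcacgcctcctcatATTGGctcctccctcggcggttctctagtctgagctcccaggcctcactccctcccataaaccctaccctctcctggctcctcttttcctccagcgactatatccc
Trim68: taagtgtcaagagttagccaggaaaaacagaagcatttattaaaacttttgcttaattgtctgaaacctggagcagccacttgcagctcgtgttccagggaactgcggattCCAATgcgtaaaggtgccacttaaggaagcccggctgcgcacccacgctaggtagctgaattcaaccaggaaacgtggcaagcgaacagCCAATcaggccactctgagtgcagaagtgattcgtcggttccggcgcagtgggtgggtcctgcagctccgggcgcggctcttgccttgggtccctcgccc
Egr2: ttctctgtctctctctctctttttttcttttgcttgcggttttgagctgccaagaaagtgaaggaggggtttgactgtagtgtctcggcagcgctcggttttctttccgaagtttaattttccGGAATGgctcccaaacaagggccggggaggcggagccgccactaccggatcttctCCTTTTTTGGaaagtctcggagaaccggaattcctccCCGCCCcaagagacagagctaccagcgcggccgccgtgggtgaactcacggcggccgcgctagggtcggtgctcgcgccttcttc
The Egr2 window held a CArG box (the site of serum response factor) that began at -72. Slc8a2 and Trim68 each held 2 CCAAT boxes.

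Promoter peaks sat mostly on CpG-rich sequence. A RefSeq window of the same gene within 1000 bp of the peak centre was found for 4194 sedentary promoter peaks (79.9%). Called CpG-rich at a GC content of at least 50% and a CpG content of at least 0.6 of that expected, 74.4% of these windows were CpG-rich, compared with 56.3% of 6646 windows whose start site lay in a sedentary peak of another annotation, 12.2% of 19794 windows whose start site lay in no sedentary peak, and 33.4% of all 32817 windows. In the detrained list the share was 74.2% of 4053 windows.

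Motif shares differed from those of all windows, in part with base composition. The GC box (GGGCGG, bound by Sp1) was in 66.1% of windows of sedentary promoter peaks and 35.6% of all windows, and the ETS site (CCGGAAG, bound by factors such as GABP) was in 22.8% and 8.86%. The TATA box (TATAAA) was in 6.49% and 13.6%, and the myogenic E-box in 14.3% and 16.3%. The MEF2 site, bound by the myocyte enhancer factors 2, was in 1.55% and 3.19%, and some of its matches contain the letters of the TATA box (177 of 1046 windows with a MEF2 match, read on the strand of the match). Among CpG-rich windows alone the GC box was at 76.0% in promoter peaks and 75.8% in all, so the gap seen over all windows was not there, whereas the ETS site was at 26.8% and 19.2%. Among CpG-poor windows the GC box was at 37.4% and 15.5%, and the ETS site at 11.2% and 3.66%. The other motifs, searched on both strands, were CCAAT (37.8% of promoter-peak windows and 37.4% of all), the clock E-box CACGTG (10.8% and 7.15%), GGAATG (10.8% and 14.7%), TCAGGTT of the MEF3 site (3.20% and 4.07%), AAGGTCA bound by the ERR receptors (2.79% and 4.72%), GCGCATGC of NRF1 (6.39% and 2.71%), the cAMP response element TGACGTCA (3.86% and 1.79%), the AP-1 site TGANTCA (4.6% and 7.81%) and the CArG box (0.95% and 1.63%). The plot of motif shares shows all 14.

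**Figure D1:**
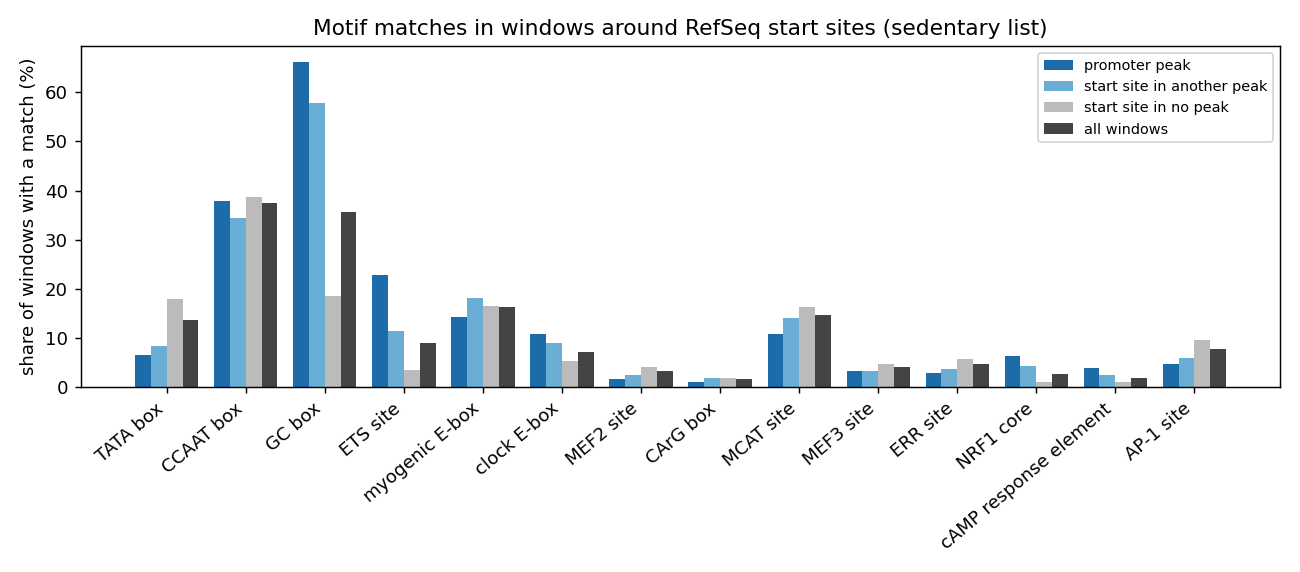
Share of RefSeq promoter windows (y axis, percent) with a match to each motif (x axis), for windows of sedentary promoter peaks, windows whose start site lay in another sedentary peak, windows whose start site lay in no sedentary peak, and all windows. The GC box, at 66.1% against 35.6%, and the ETS site, at 22.8% against 8.86%, are more frequent in promoter peaks than in all windows, and the TATA box, at 6.49% against 13.6%, is less frequent.

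Promoter peaks were denser than the other listed peaks as a whole, and close to 5′ UTR peaks. Density was the number of tags, plus 0.5, for each kb of called peak and each 10000000 tags of the library, and was compared on the log2 scale. The share of each library in a peak was taken from the deposited regularized log2 values, which pull the libraries of a list together at weak peaks, so the spread between libraries of a group is understated there. The median density of promoter peaks was 62.6 and 61.9 in the sedentary libraries C2 and C3 and 63.3 and 59.5 in the detrained libraries Ex1 and Ex2. All other peaks had medians of 25.3, 26.1, 28.3 and 27.7. The promoter median was above that of the other peaks in every library, by 2.47-fold and 2.37-fold in the sedentary and by 2.23-fold and 2.15-fold in the detrained libraries.

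The enrichment over input, as the difference of the deposited log2 values, had a median of 2.70 and 2.71 at sedentary promoter peaks and 2.68 and 2.57 at detrained ones. At other peaks it was 2.21 and 2.24, and 2.19 and 2.16. Peaks centred in a 5′ UTR had densities of 60.3 and 58.2 in the sedentary and 63.4 and 57.6 in the detrained libraries, so in Ex1 they lay level with promoter peaks, and their enrichment over input was 2.72, 2.70, 2.76 and 2.61, above the promoter value in 3 of the 4 libraries. In the sedentary libraries peaks centred in an exon lay between (39.2 and 39.2), and intron (25.3 and 26.3) and intergenic peaks (24.1 and 24.5) lay lowest of these. Promoter peaks held 8.20% and 8.57% of all tags of C2 and C3 and 8.29% and 7.67% of those of the detrained libraries, where all listed peaks together held 44.7% to 49.4%.

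**Figure D2:**
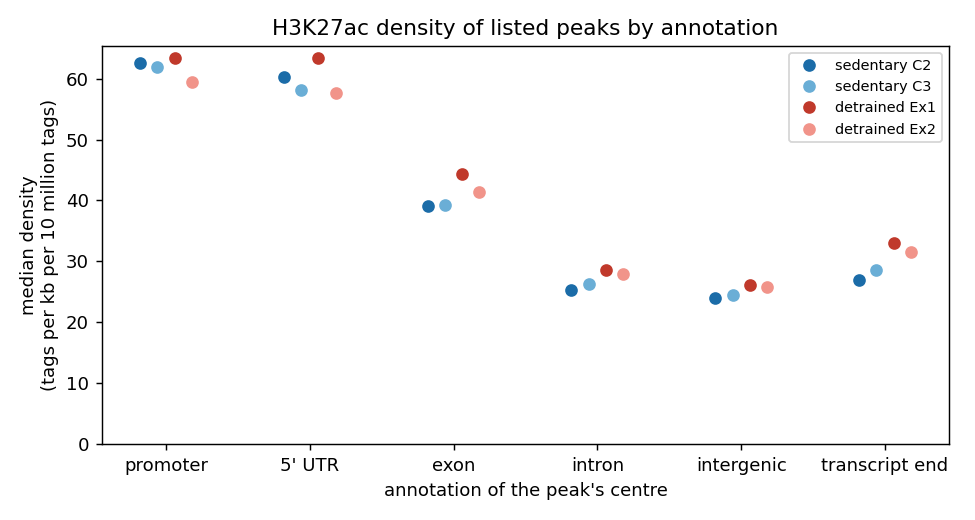
Median H3K27ac density (y axis, tags per kb per 10000000 tags) of listed peaks by the annotation of their centre (x axis), 1 point per library. Promoter peaks lie between 59.5 and 63.3 in the 4 libraries, next to 5′ UTR peaks, and intergenic peaks between 24.1 and 26.2.

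Promoter peaks were also longer and held more tags than the other listed peaks as a whole. Their median length was 1870 bp in the sedentary and 1859 bp in the detrained list, against 1501 and 1783 bp for other peaks. Peaks centred in a 5′ UTR were slightly longer than promoter peaks, at 1880 and 1913.5 bp. The pooled signal of a promoter peak, the tags of both libraries per 10000000, had a median of 119 and 117.9, against 38.9 and 50.3. Protein-coding genes gave 93.1% of members in each list, and noncoding RNA genes gave 341 sedentary and 324 detrained members. The remaining 22 and 27 were annotated to genes of other types or of none given.

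Members differed more among themselves than between the groups. The mean density of the 3645 promoter pairs over the 4 libraries ran from 11.9 to 203.7, with 27.4 at the 5th and 120 at the 95th percentile and a median of 66.4. The 10 densest, taking 1 pair per gene, were at 2 noncoding genes (B330016D10Rik and 5031425E22Rik), Hnrnpa2b1, Cox20 (an assembly factor of cytochrome c oxidase), Hivep2 (a zinc-finger factor), Mat2a, Ubtf (which activates ribosomal RNA genes), Rbm39 (a splicing factor), Hspa4 and Hnrnpa0 (an RNA-binding protein). In the order C2, C3, Ex1 and Ex2, kept for every set of 4 densities below, B330016D10Rik had 196, 224, 203 and 194. Hnrnpa2b1 had 186, 213, 209 and 170, and Mat2a had 183, 199, 186 and 171. At Hnrnpa2b1 and Mat2a the detrained libraries overlapped the sedentary ones. Of the 100 densest pairs, 70 had a CpG-rich and 6 a CpG-poor window, 9 were at noncoding genes and none stood apart between the groups by the rule below.

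CpG-rich promoter pairs were denser than CpG-poor ones. The 2302 CpG-rich pairs had medians of 71.3, 71.3, 72.3 and 66.4, and the 639 CpG-poor pairs had 52.4, 53.0, 53.5 and 50.2. The difference on the log2 scale was 0.44 in sedentary and 0.42 in detrained muscle. Lengths were close, at 1907 and 1982 bp in the sedentary list. Pairs with an NRF1 core had medians of 75.5, 77.9, 77.7 and 73.6 (197 pairs), above the CpG-rich level, and pairs with a myogenic E-box had 62.3, 62.2, 64.5 and 60.3 (388 pairs). Sedentary promoter peaks with start sites on opposite strands, pointing apart within 1000 bp, made up 20.5% of the 4235 with a start site, against 5.47% of 5302 other peaks. Paired peaks of that kind had medians of 73.6, 73.7, 75.02 and 68.6 (767 pairs), compared with 66.1, 65.7, 66.6 and 62.2 for the 2277 with start sites but no such arrangement.

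Promoters on the X chromosome were less dense than autosomal ones. These males carry a single X, and the densities were not divided by input. The part of copy number in this difference was not tested. The 124 X-linked pairs had medians of 40.8, 41.6, 39.4 and 36.4, and the 3519 autosomal pairs had 68.3, 68.0, 69.4 and 64.1. On the Y chromosome there were 2 promoter pairs, Eif2s3y, at 49.6, 55.2, 53.4 and 66.5, and Kdm5d, at 44.6, 48.1, 50.1 and 46.9.

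A few promoter peaks were very wide. The 5 widest pairs were at Plec (plectin, which links the cytoskeleton to junctions and Z-discs), Arhgef2 (a guanine nucleotide exchange factor), Dusp1 (a phosphatase that inactivates MAP kinases), Gm15417 (a noncoding gene) and Mir486 (a microRNA abundant in muscle). Plec spanned 13519 bp in the sedentary and 14919 bp in the detrained list, with densities of 116, 135, 117 and 105. Dusp1 spanned 12898 and 13983 bp, with 114, 122, 125 and 103. Mir486 spanned 11126 and 13993 bp, with 84.2, 99.0, 74.6 and 69.8, so both detrained libraries lay below both sedentary ones there, though its whole-peak tags differed by -0.01 on the log2 scale. The longest single promoter peaks were Gm15441 in the sedentary list, at 27537 bp, and Ankrd9 in the detrained list, at 17997 bp. Klf9, a glucocorticoid-responsive factor, held the most pooled tags of any sedentary promoter peak (3396.3 per 10000000 over 22336 bp). Brd2, a bromodomain protein that binds acetylated histones, had 214 and 195 in Ex1 and Ex2 and was a member in the detrained list.

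Most promoter peaks were found in both lists. A partner of any annotation existed for 87.6% of sedentary and 88.6% of detrained promoter peaks, compared with 52.3% and 61.5% of other peaks. A further 292 sedentary and 318 detrained promoter peaks overlapped a peak of the other list without meeting the 50% rule. No overlap at all was found for 360 sedentary (6.86%) and 267 detrained promoter peaks (5.22%), against 30.5% and 19.8% of other peaks. These were weaker and shorter than the rest, with a median pooled signal of 22.3 and 27.1, against 127.4 and 124.7 for promoter peaks that overlapped, and median lengths of 936 and 1074 bp.

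The sedentary peaks of most tags without an overlap were at Snhg5 (a small nucleolar RNA host gene; 52.6 in C2 and 46.2 in C3), Arhgef3 (a guanine nucleotide exchange factor; 24.8 and 28.3), 1700112J16Rik (54.9 and 53.2), AU019990 (34.3 and 32.0) and Zfp512 (36.4 and 42.0). The detrained ones were at Mxd1 (a partner of MAX that opposes MYC; 48.7 in Ex1 and 42.5 in Ex2), Zfp69 (55.9 and 56.2), Rtraf (61.7 and 58.8), Icmt (which methylates prenylated proteins; 46.4 and 46.2) and Gfod1 (60.0 and 49.2). Both libraries of the group carried the signal at each of these 10 peaks. The lists give no level for the other group there, so no fold was formed.

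Part of the membership turned on where the centre of a wide peak fell. Of the paired promoter peaks, 954 sedentary and 884 detrained ones had a partner with another annotation, most often intron (473 and 443), 5′ UTR (193 and 180) or exon (154 and 151). In the first set the median centre lay at -17 bp from the start site in the sedentary and at 212 bp in the detrained list, and in the second at 218 and -13 bp. Median densities were 62.9, 63.1, 61.4 and 57.1 in the first set and 59.9, 61.2, 62.2 and 59.4 in the second, close to those of the promoter pairs. Just inside the downstream limit, 1314 sedentary promoter peaks centred 0 to 100 bp after the start site had medians of 63.0 and 61.6, and just outside it, 987 other peaks of the next 100 bp had 57.8 and 56.4. At the upstream limit, 58 members centred within the last 100 bp had 43.5 and 49.6, and 66 peaks in the next 100 bp had 44.3 and 48.8. In the detrained list the 60 members inside this limit had 46.5 and 40.7, lower than the 56.8 and 50.4 of the 60 peaks outside it. The 62 promoter pairs with an overlap of 50% to 55% had a median absolute log2 ratio of 0.32, and 40 pairs of 45% to 50% had 0.52.

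Of the RefSeq start sites, 39.7% lay in a sedentary peak and 39.5% in a detrained one, and promoter peaks held 49.0% and 48.1% of these. The promoter peaks reached a median of 1048 bp upstream and 885 bp downstream of the start site in the sedentary list. The 4020 start sites in peaks annotated as intron had peaks that reached 833 bp upstream and 1924 bp downstream, with a median length of 3220 bp.

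The question of whether promoter acetylation differed after detraining was addressed with the 3645 pairs. The 2 lists were normalized separately and each group has 2 libraries, so no test was made. Permuting 2 libraries against 2 exactly could give no p below 0.333 (two-sided). Each difference is set instead beside the spread between libraries.

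The median density of the promoter pairs was 67.4, 66.7, 68.4 and 63.0. Ex1 lay above and Ex2 below both sedentary libraries. On the log2 scale the medians were 6.07 ± 0.01 for sedentary and 6.04 ± 0.09 for detrained muscle (SD, n = 2 libraries). The median log2 ratio, detrained over sedentary, was -0.03 at promoter pairs and -0.03 over all 26436 pairs. Without Ex1 it was -0.09, and without Ex2 it was 0.03, so its sign rested on which detrained library was used. Both detrained libraries lay above both sedentary ones in 23.0% of promoter pairs and below them in 30.3%, beside 21.3% and 27.2% of all pairs. From the 5th to the 95th percentile the log2 ratio ran from -0.40 to 0.36, and its SD over pairs was 0.23, against 0.27 over the other pairs. All 3645 ratios lay within 2-fold. The plot of ratio distributions shows the promoter pairs centred with, and slightly narrower than, the other pairs.

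**Figure D3:**
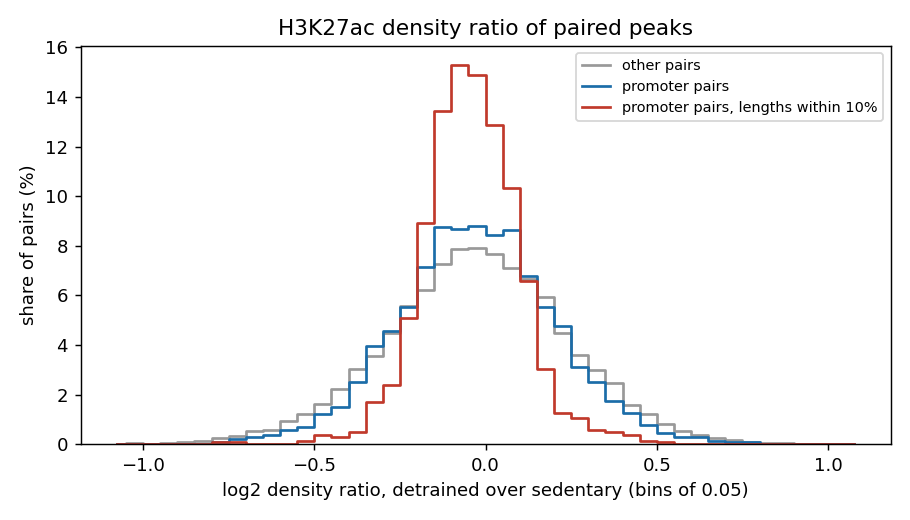
Distribution of the log2 density ratio, detrained over sedentary (x axis, bins of 0.05), as the share of pairs (y axis, percent) for 3645 promoter pairs, 22791 other pairs and 1412 promoter pairs whose lengths differed by less than 10%. The 3 centre near 0, with an SD of 0.23 for promoter pairs, 0.27 for other pairs and 0.14 for promoter pairs of close length.

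A pair was counted as apart when its group means differed by 1.5-fold or more and the ranges of its sedentary and detrained libraries did not overlap. By this rule 29 promoter pairs were higher in detrained muscle and 41 were lower (0.796% and 1.12% of promoter pairs), beside 1.1% of all pairs that were higher and 2.06% that were lower. Without Ex1 there were 20 higher and 87 lower, and without Ex2 59 higher and 38 lower, so the balance of directions turned on the library left out. With ratios centred on the median of all pairs there were 33 higher and 34 lower, and with libraries scaled to their tags in paired peaks 34 and 34. None of the promoter pairs was 2-fold apart, and 20 of all pairs were.

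The called length of the peak moved with most of these differences. Of the 29 higher pairs, 28 had a shorter peak in the detrained list, and of the 41 lower pairs 38 had a longer one. In tags per whole peak 79 promoter pairs were apart, 36 higher and 43 lower, beside 5.52% and 5.08% of all pairs, and 6 of the 70 were among them. Across the promoter pairs the log2 density ratio and the log2 length ratio had a Spearman correlation of -0.75, and the ratio of tags per whole peak had one of 0.62, a description in which both measures share the called length. The 50% rule itself holds the lengths of a pair within about 2-fold. Nup98 (a nucleoporin), the lowest ratio of the promoter pairs, had sedentary densities of 103 and 113 and detrained ones of 56.7 and 53.2, at lengths of 1917 and 3673 bp. Its tags in the whole peak were 197.0, 217.3, 208.4 and 195.3 per 10000000, and the groups overlapped. E030011O05Rik, a noncoding gene with the highest ratio, had densities of 30.3, 30.8, 62.2 and 56.8 at lengths of 2973 and 1497 bp, and tags per peak of 90.0, 91.5, 93.2 and 85.0, which overlapped too.

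Among the 10 lowest ratios of pairs apart per kb, others that were not apart per whole peak were Ecsit (an assembly factor of complex I), Tmem248, Ube2j1 (a ubiquitin-conjugating enzyme of the endoplasmic reticulum), Slc25a1 (the mitochondrial citrate carrier), Xpo7 (an exportin) and Tmem116, with log2 ratios per kb of -0.86 to -0.72. Their log2 ratios per whole peak ran from -0.31 to 0.13, and that of Slc25a1 was the lowest. Among the 10 highest, Dusp18, Gm45871, Adprh (an ADP-ribosylarginine hydrolase), Paqr3, 9130019O22Rik, Crybb1 (a lens crystallin) and Ttc30a1 (intraflagellar transport) had 0.69 to 0.84 per kb and -0.09 to 0.27 per whole peak. Adprh had 71.4 and 72.0 against 121 and 121 per kb, with 238.7, 240.6, 225.7 and 226.2 tags in the whole peak. The plot of ratio against length shows these pairs at its corners.

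**Figure D4:**
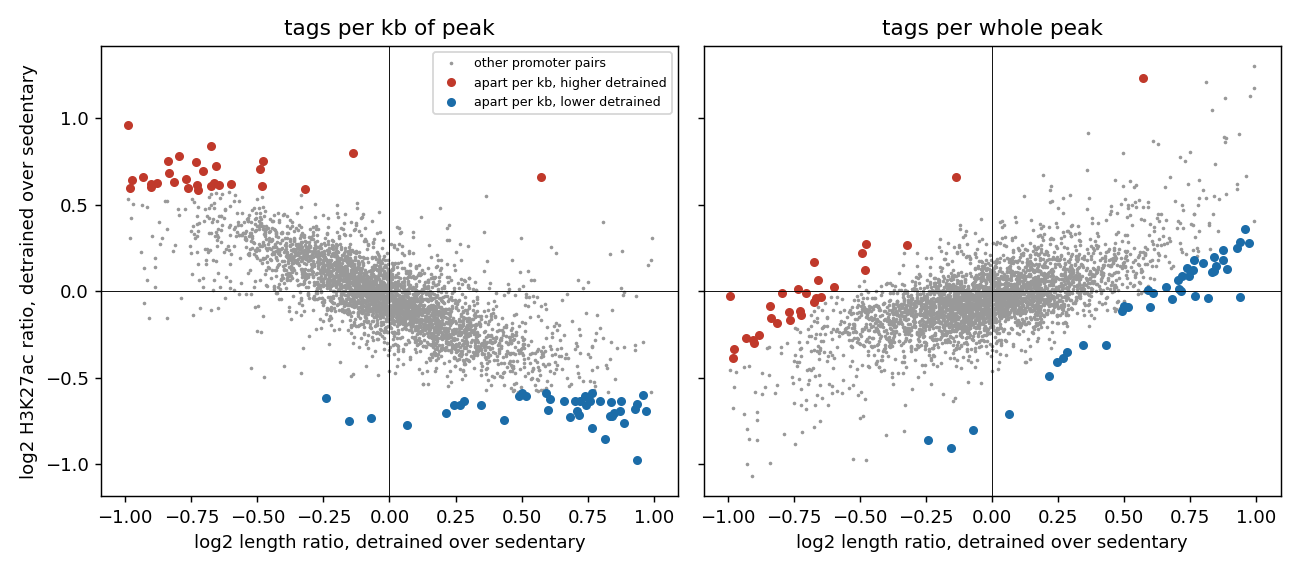
Log2 H3K27ac ratio, detrained over sedentary (y axis), against the log2 ratio of the called lengths (x axis) for 3645 promoter pairs, with tags per kb on the left and tags per whole peak on the right. The 29 pairs apart and higher per kb (red) lie mostly at shorter detrained lengths and the 41 lower ones (blue) mostly at longer ones, and on the right most of them lie near 0.

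These 6 promoter pairs stood apart by the same rule in both tags per kb and tags per whole peak, 2 higher and 4 lower in detrained muscle, beside 0.257% (68) and 0.461% (122) of all pairs. This requirement was added after the data were seen. Sel1l3 had densities of 56.8, 55.2, 23.2 and 46.2, so Ex1 was about 2-fold below Ex2 and the spread between the detrained libraries (SD 0.70 on the log2 scale) was nearly as large as the difference of -0.77. Gm36738, a predicted noncoding gene, had 51.9, 46.0, 24.6 and 34.1 (log2 ratio -0.75). Slc8a2, shown above, had 29.2, 32.6, 19.6 and 17.6 (-0.73), and within each group its libraries differed by less than the groups did. Ncoa4, the receptor for degradation of ferritin, had 34.8, 28.4, 18.2 and 23.0 (-0.62).

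The higher ones were Dmtn (dematin, which bundles actin), with 28.8, 22.2, 45.8 and 42.0 (0.80), and Trim68, shown above, with 29.6, 31.2, 54.4 and 42.4 (0.66). In Trim68 the detrained peak reached 655 bp downstream of the start site and the sedentary one 137 bp. In whole-peak tags Trim68 had 26.2, 27.7, 71.7 and 55.9, and Dmtn had 25.3, 19.5, 36.6 and 33.6. All 6 had mean densities below the median of the promoter pairs. Slc8a2, Ncoa4, Trim68 and Dmtn held at most 71.7 tags per 10000000 in any library, while Sel1l3 and Gm36738 held 80.9 to 246.6.

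**Figure D5:**
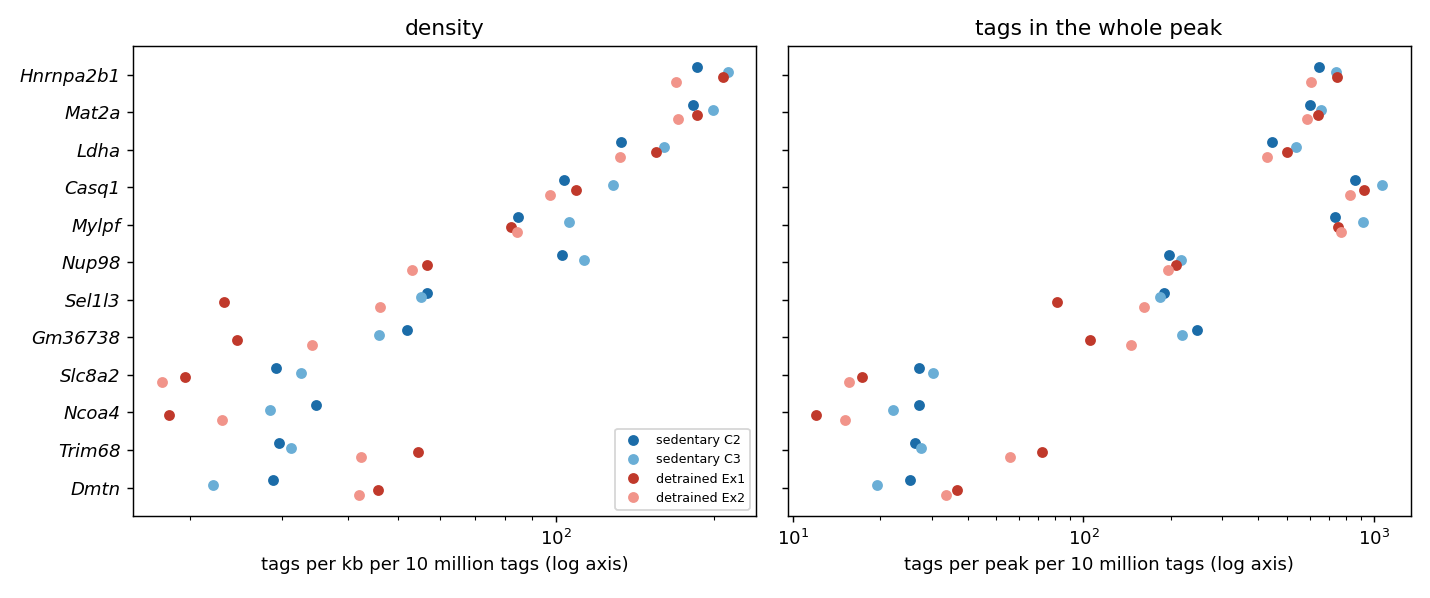
H3K27ac in each library at 12 named promoter pairs, as density on the left (tags per kb per 10000000, log axis) and as tags in the whole peak on the right (per 10000000, log axis). At Hnrnpa2b1, Mat2a, Ldha and Casq1 the groups overlap, Mylpf (84.5, 106, 82.2 and 84.3 on the left) is narrowly lower in both detrained libraries on the left and overlaps on the right, Nup98 is separated on the left only, and the 6 lowest rows, from Sel1l3 to Dmtn, are separated on both sides.

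The 1412 promoter pairs whose lengths differed by less than 10% had a median log2 ratio of -0.04 with an SD of 0.14, a spread that the choice of close lengths itself can narrow, and 2 of them, Sel1l3 and Slc8a2, were apart, beside 0.984% of all pairs of close length (76 of 7724). The next lowest ratios among those with all libraries on 1 side were at Mettl13 (-0.54), a lysine methyltransferase of elongation factor 1A, Entpd5 (-0.54), a nucleoside diphosphatase of the endoplasmic reticulum, and Gm5431 (-0.49). The highest were at Sumo3 (0.51), a ubiquitin-like modifier, Eri2 (0.48), an exoribonuclease, Scd1 (0.46), the desaturase that makes oleic acid, Ifit3 (0.45), an interferon-induced gene, and Cd37 (0.43), a tetraspanin of leukocytes. These were named after their values were seen. Scd1 had 34.9, 32.4, 47.1 and 45.3, Ifit3 had 16.2, 17.2, 23.3 and 22.1, and Mettl13 had 80.9, 73.6, 54.1 and 52.1.

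Genes of muscle function were then followed by lists. Of 14 fast-fibre genes of contraction and calcium handling, 4 had a sedentary and 3 a detrained promoter peak, although 9 of the 10 with a RefSeq window had their start site in a listed peak of each group. Promoter peaks held 3 of the 9 in each list, beside 49.0% and 48.1% over all RefSeq start sites in a peak. The median length of the peaks at the 9 start sites was 13027 bp in sedentary and 10265 bp in detrained muscle, beside 2226 and 2225 bp over all start sites in a peak. Myh4, the fastest myosin heavy chain, had its start site in an intron-centred peak of 17925 bp in the sedentary list (61.3 and 79.2) and 10265 bp in the detrained list (79.3 and 76.7). Atp2a1, the fast calcium pump, had 95.4 and 124 over 15521 bp and 136 and 131 over 12790 bp.

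The 3 paired fast-fibre members had wide peaks that reached over 3 kb on both sides of the start site. Casq1 had 104, 128, 109 and 97.6, Mybpc2 had 78.5, 109, 90.8 and 85.4, and Mylpf had 84.5, 106, 82.2 and 84.3. Log2 ratios were -0.07 to -0.18, with 0 of 3 apart. C2 and C3 differed from each other by more than the groups did at all 3. Slow-fibre genes gave 1 sedentary member (Atp2a2, the slow calcium pump) and none in the detrained list, out of 12, with 3 and 4 start sites in any peak. The list of thin filament, titin and Z-disc genes gave 3 and 1 of 19, and the single pair, Cryab (a small heat shock protein bound to desmin), had 93.6, 105, 109 and 97.6.

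Of 17 myogenic, MEF2 and Six-family factors, 3 were paired. Mef2a had 131, 147, 164 and 145, Mef2c had 49.1, 54.9, 58.5 and 48.2, and Six2 had 32.7, 37.1, 25.2 and 24.9, with both detrained libraries below both sedentary ones (log2 ratio -0.48 per kb and -0.62 per whole peak). Glycolysis and glycogen genes gave 2 members of 22 in each list, with 21 start sites in a peak of each, and the only pair was Ldha (lactate dehydrogenase A), at 133, 161, 155 and 133.

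Genes of mitochondrial oxidation came next. Of 28 genes of fatty acid oxidation and the citrate cycle, 12 were members in the sedentary and 13 in the detrained list, and 10 were paired, with a median log2 ratio of -0.07, beside -0.03 for all promoter pairs. Without C2 the median was -0.17 and without C3 it was 0.01. Both detrained libraries lay below both sedentary ones in 4 of the 10 and above them in 1, beside 27.2% and 21.3% of all pairs, and none was apart. Etfdh (which passes electrons to ubiquinone) was least dense at 47.2, 44.5, 50.7 and 48.6. The lowest ratio, -0.40, was at Hadh (which oxidizes hydroxyacyl-CoA), at 82.8, 95.7, 68.8 and 66.1, and its whole-peak ratio was -0.12.

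Oxidative phosphorylation subunits gave 14 and 15 members of 32, with 12 pairs and a median log2 ratio of 0.11 per kb, whereas the median per whole peak was -0.07. The sign thus turned with the unit. With 1 library left out the median per kb ran from 0.02 to 0.18. Both detrained libraries lay above both sedentary ones in 4 of the 12 pairs and below them in 1. Over all pairs these shares were 21.3% and 27.2%. Ndufs1 (complex I) had 142, 151, 142 and 127, Cox8b (complex IV, muscle form) had 70.2, 80.2, 86.7 and 76.6, and Sdhd (complex II) had 89.2, 95.5, 120 and 112 with a detrained peak of 1612 bp in place of 2242 bp.

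Ribosomal and proteasome genes are housekeeping genes of the kind that carry CpG islands. Of 31 cytosolic ribosomal proteins, 19 and 20 were members and 18 were paired, with a median log2 ratio of -0.05. Rpl13 was the only pair of a pathway list that was apart per kb, with 53.9, 59.2, 35.0 and 36.5 at lengths of 2020 and 3386 bp and a whole-peak ratio of 0.09. Over all pairs 1.1% were apart and higher per kb and 2.06% apart and lower. Per whole peak the pairs apart in the pathway lists were Igf1 and Six2, both lower, and Rpl13 was not among them. Over all pairs 5.52% were apart and higher per whole peak and 5.08% apart and lower. Rplp2 was the densest ribosomal pair, at 107, 114, 148 and 136, and Rplp1 had the largest ratio per kb, 0.37. The whole-peak log2 ratios of Rplp2 and Rplp1 were -0.12 and 0.04. Of 31 proteasome subunits 10 and 14 were members, and the 9 pairs had a median of 0.04, from -0.49 at Psma7 to 0.19 at Psmb5. Without Ex1 that median was -0.14, of the opposite sign.

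Immediate early genes switch on within minutes of a stimulus. Of 22 such genes, 3 had a sedentary promoter peak (Jun, Maff and Nr4a2) and 9 a detrained one, namely these 3 with Egr1, Egr2, Fos, Fosl2, Junb and Nr4a3. The start sites themselves lay in a listed peak for 16 and 17 of the 17 genes with a RefSeq window, and Egr2 was the one without in the sedentary list. Over all genes 5189 had a sedentary and 5056 a detrained promoter peak, and the counts of the list were not tested. Fos had a sedentary peak of 4170 bp centred at -1033 bp, just outside the promoter window, with 134 and 152 in C2 and C3, and a detrained peak of 5418 bp centred at -40 bp, with 129 and 103. Fosl2 had 103 and 106 over 11222 bp in the sedentary and 133 and 135 over 8584 bp in the detrained list. Junb had 93.0 and 100.6 over 9741 bp and 125 and 107 over 7739 bp.

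Nr4a3 had 160 and 155 over 3673 bp, and 133 and 121 over 5274 bp. Pooled tags of these wide peaks were closer than the densities, at 595.3 and 624 for Fos, 1172 and 1153.3 for Fosl2, 942.4 and 894.2 for Junb and 577.6 and 669.7 for Nr4a3. Egr2 differed from them in that only the detrained list held a peak over its start site, of 1437 bp, with 53.8 and 58.0. The 3 pairs, Jun (123, 144, 127 and 116), Nr4a2 (87.0, 87.9, 99.8 and 79.1) and Maff (58.7, 61.7, 62.2 and 56.6), overlapped between the groups per kb. Jun and Nr4a2 overlapped per whole peak too. Maff had 109.3, 114.8, 160.7 and 146.1 tags per whole peak (log2 ratio 0.45), at lengths of 1861 and 2584 bp, so both detrained libraries lay higher there.

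The coactivator PGC-1α and its partners drive mitochondrial genes. Of 17 genes of PGC-1, ERR, PPAR and RXR regulators, 9 had a sedentary and 4 a detrained promoter peak, while 16 of 16 start sites lay in a peak of each list. Promoter peaks held 10 of the 16 start sites in the sedentary and 6 in the detrained list. Over all RefSeq start sites in a peak the shares were 49.0% and 48.1%. These counts were not tested either. Ppargc1a, which encodes PGC-1α, had a sedentary promoter peak of 1563 bp with 80.3 pooled tags and densities of 50.7 and 52.3. In the detrained list its start site lay in a peak of 6238 bp centred at -2058 bp, with 221.5 pooled tags and densities of 38.8 and 32.6. Esrra (the receptor ERRα) had 100.7 and 110 over 2967 bp and 75.2 and 68.4 over 4621 bp, with pooled tags of 311.8 and 330.9. Tfam (which packages mitochondrial DNA) had 50.6 and 61.7, and 60.6 and 70.2 in the sedentary and the detrained list. The genes whose annotation differed between the lists were picked for that after their values were seen.

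Both detrained libraries lay above both sedentary ones in 3 of the 4 pairs, where 21.3% of all pairs did so, and 4 pairs are too few to read that share. They were Pparg (0.37; 38.2, 42.1, 54.0 and 49.6), Esrrg (0.34; 37.7, 39.6, 51.7 and 46.2) and Rxrb (0.23; 101.4, 110, 132 and 116). Pparg and Esrrg were also higher in whole-peak tags, by 0.27 and 0.38 on the log2 scale, and Rxrb was not (0.00). Ppara had 49.9, 52.0, 53.9 and 46.2 per kb, which overlapped, and 209.3, 218.4, 330.0 and 282.6 tags per whole peak (0.51), at lengths of 4199 and 6118 bp. None was apart by the 1.5-fold rule.

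Clock genes gave 7 and 6 members of 18 and 6 pairs with a median log2 ratio of 0.14, which ran from 0.02 to 0.20 when 1 library was left out. Per whole peak the median was 0.08. Cry1 (a repressor of the clock) had 87.7, 104, 115 and 103, Clock had 83.3, 84.5, 102 and 93.8, Npas2 had 28.0, 19.6, 29.2 and 24.1, and Ciart (a repressor of the clock) had 103, 112, 91.4 and 91.3. The whole-peak log2 ratios of Cry1, Clock, Npas2 and Ciart were -0.06, -0.11, 0.37 and -0.05, so those of Cry1 and Clock changed sign with the unit. Heat shock and chaperone genes gave 11 and 10 of 21 and 8 pairs with a median of 0.14, which was -0.003 without Ex1 and 0.28 without Ex2. In 7 of the 8 the ratio was above 0, where 2005 of all 3645 promoter pairs lay below 0. Hsp90ab1 (a cytosolic HSP90) had 143, 141, 204 and 156 (0.33), Hspa8 (the constitutive HSP70) had 155, 172, 179 and 149, and Unc45b (the myosin chaperone) had 72.3, 91.5, 69.9 and 57.6. At Hsp90ab1 the higher group mean rested mostly on Ex1.

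Angiogenic factors and myokines gave 4 and 3 of 18, with 2 pairs. Igf1 (insulin-like growth factor 1) had 74.8, 64.4, 44.9 and 58.8 (-0.43), with a peak of 6998 and 5301 bp and whole-peak tags of 523.3, 451.0, 237.9 and 311.9 (-0.83). Pgf, placental growth factor, had 28.7, 24.5, 18.8 and 24.7 (-0.30). Atrophy and FoxO genes gave 3 and 2 of 17, with 2 pairs, Fbxo30 (a ubiquitin ligase of atrophy) at 107, 118, 120 and 104 and Foxo4 at 44.6, 48.0, 41.7 and 37.1.

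Several genes known for their part in exercise were no promoter members. Acta1 (skeletal actin), Ckm (muscle creatine kinase), Mb (myoglobin), Myh1, Myh2, Myh4, Myh7 and Vegfa had no promoter peak in either list. Acta1 and Ckm had their start sites in peaks of 7421 and 10061 bp in the sedentary list, with 76.2 and 95.9 at Acta1 and 81.8 and 106 at Ckm. Pdk4, the kinase that shuts off pyruvate dehydrogenase, had its start site in a peak of both lists, centred at -846 bp in the sedentary (5371 bp, 342.3 pooled tags) and at -1271 bp in the detrained list (5568 bp, 291.5 pooled tags), so that only the first fell inside the promoter window.

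The tissue label was checked with markers. Of 8 skeletal muscle markers, 6 had a RefSeq window and all 6 start sites lay in a listed peak of each group. Mylpf, the single promoter pair among them, lay lower per kb in both detrained libraries (log2 ratio -0.18), as 27.2% of all pairs did, and overlapped per whole peak. No start site of the 3 heart, 2 liver, 2 brain or 4 adipocyte markers lay in a listed peak. All 4 endothelial markers and both fibroblast markers with a window had their start sites in a peak of each list, and 3 fibroblast markers, Dcn, Col1a1 and Pdgfra, were promoter pairs, at 65.4, 69.8, 67.1 and 73.0 for Dcn (decorin), 35.5, 34.9, 40.1 and 36.1 for Col1a1 (type I collagen) and 41.7, 38.4, 46.7 and 48.9 for Pdgfra. All 3 ratios were above 0, with a median of 0.11 per kb and 0.20 per whole peak, and both detrained libraries lay above both sedentary ones in 2 of the 3, where 21.3% of all pairs did so. The endothelial receptor Tie1 was a promoter pair at 21.3, 30.5, 36.2 and 26.98, where the groups overlapped per kb. Its tags per whole peak were 46.1, 66.1, 91.2 and 68.1 (log2 ratio 0.51), with both detrained libraries above both sedentary ones. Of the leukocyte markers, 4 of 7 had a window, and 0 of these start sites lay in a sedentary and 3 in a detrained peak. The 3 were Ptprc (36.3 and 22.5 in Ex1 and Ex2), Itgam (17.7 and 16.0) and Cd68 (69.5 and 62.4), none in a promoter peak. Of the 7 leukocyte markers, 5 were the nearest gene of a listed peak in each list. The part of leukocyte and fibroblast markers in the differences at promoters was not tested. The smooth muscle list had 1 of 2 and the satellite cell list (Pax7 and Myf5) 2 of 2 start sites in a peak of each list, and the Schwann cell markers had no window.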

How the data were processed

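H3K27ac ChIP-seq was made from quadriceps of sedentary and detrained mice, with 2 H3K27ac libraries and 1 input per group. Per the labels and the methods of the study, the authors mapped reads with Bowtie (1.2 in the submitters' processing notes) against mm10, kept uniquely mapped reads with 1 tag per position, and called peaks in each group with HOMER in histone style on both replicates against the input. The deposited pooled signal of a peak is the tags of both libraries per 10000000. The deposited log2 values per library came from the authors' DESeq2 regularized log transform within each list, so they are shrunken, and enrichment over input was taken from them only. Columns with the authors' own fold changes and p-values were not used, and 0 columns of per-sample values were left unmapped. The sedentary columns are numbered 2 and 3 where the labels number 1 and 2, so they were mapped to the group only.

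Tags per peak in each library were derived by sharing the pooled signal between the libraries in proportion to their log2 values (unlogged) and totals, and were expressed per 10000000 tags. Density is (tags + 0.5) per kb of called peak. Totals of 20805019 to 22400894 tags bound the precision, and no p-values were computed. Peaks were paired at 50% of each covered, and apart means 1.5-fold or more with no overlap of libraries. Genes were named as the 10 densest pairs, the 10 largest ratios in each direction among pairs apart, the 5 widest pairs, the 5 peaks of most tags in 1 list alone, the densest, least dense and extreme ratios of each gene list, and 10 preset genes. Members and lists were chosen with earlier results of these data known. Promoter windows came from RefSeq (GRCm38.p6), and Sel1l3 and Dmtn had no entry. Scripts, tested on simulated data, used pandas 2.3.3, numpy 2.4.6, scipy 1.17.1 and matplotlib 3.10.9 under Python 3.11.15. Alternatives were the unit, overlap, pseudocount, fold, low-signal limits, scaling, annotation rule and each library left out. A few named genes are not reported here.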

Additional observations from a re-analysis of the deposited data

How the results depend on the processing

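The median log2 ratio of promoter pairs, -0.03, ran from -0.05 per whole peak to 0.002 with scaling to tags in paired peaks, where its sign turned, and from -0.09 to 0.03 with 1 library left out. The count of 70 pairs apart was 6 at 80% overlap, of which 0 were higher and 6 lower in detrained muscle. It was 137 with promoter annotation in either list, 0 at 2-fold and 584 at a difference of 25%. It was 6 when both units were required and 2 when lengths differed by less than 10%, and it ran from 89 to 107 with 1 library left out. Each of these limits by construction alters which pairs can be counted, and the effect of overlap and of length was not separated further. By distance to the start site the promoter share was 9.95% of sedentary and 11.2% of detrained peaks, with at least 30 pooled tags 16.6% and 16.66%, and at a log2 over input of at least 2 14.2% and 16.71%. The share with a partner was 92.7% and 92.3% with at least 30 tags, 92.0% and 93.0% over input, 55.7% and 56.4% at 80% overlap, and 93.1% and 94.8% at any overlap. The promoter excess in log2 density over other peaks (1.27 sedentary, 1.13 detrained) was 1.61 and 1.22 per whole peak and 0.87 and 0.85 with at least 30 tags. The CpG-rich excess (0.44 and 0.42) was 0.36 and 0.36 per whole peak and 0.34 and 0.34 at 80% overlap. Where a cause is not given by the construction, the cause was not tested. Of the gene list medians 11 values moved beyond the spread and 90 did not, and the oxidative phosphorylation median, 0.11, was -0.07 per whole peak. Without Ex2 the median ratio turned from -0.03 to 0.03, and the 29 higher and 41 lower pairs became 59 and 38. Leaving out 1 library also turned the sign of the medians of the thin filament, myogenic, glycolysis, fatty acid, proteasome, immediate early and heat shock lists. No paired analysis was possible because the sedentary columns are numbered 2 and 3 and the detrained ones 1 and 2, the labels tie no animals across the groups, and no test was made. With 2 libraries per group and separately normalized lists, differences smaller than the spread between libraries were not detectable, and peaks listed in 1 group only have no level in the other.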
